A study of Mus musculus with 98 samples.

Results

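Dbp, Tef, Hlf, Nfil3, Ciart, Bhlhe40 and Bhlhe41 are 7 transcription regulators that carry time from the circadian clock to its target genes. They were taken as the mouse rows with these symbols that are present in both deposited count tables. All 7 were found, of 20757 mouse genes listed in the tables, and 7 of 7 passed the filter on low counts in each tissue. The data are RNA sequencing counts from 98 libraries. These come from liver, from muscle and from 2 hypothalamic nuclei, the arcuate (ARC) and the suprachiasmatic (SCN), the latter being the site of the central pacemaker. The mice were male FRGN mice of 10 weeks, which carry homozygous deletions of Fah, Rag2 and Il2rg on a non-obese diabetic background and so lack mature lymphocytes. Their livers were repopulated by hepatocytes injected into the spleen, human in the Hu arm and murine in the Mu arm, and Hu mice were kept only above 70% human repopulation. Both arms carried the same deletions and had cycles of nitisinone, which protects Fah-deficient hepatocytes, and of sulfamethoxazole, trimethoprim and dextrose in the water. Non-hepatocyte cells of the liver, and the residual host hepatocytes of Hu livers, are mouse cells. Sampling was at zeitgeber time (ZT, hours after lights on) 2, 6, 10, 14, 18 and 22. Liver and muscle each had 15 Hu and 12 Mu libraries, with 2 or 3 per arm and time point. ARC and SCN each had 10 Hu and 12 Mu libraries, with 1 or 2 per arm and time point. The labels do not say that replicates are separate animals, so p-values measure the spread between these libraries.

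Dbp, Tef and Hlf form the PAR bZIP family of activators, which bind the D-box, a short DNA element in genes of drug, heme and fat metabolism. Nfil3 is a repressor that binds the same element and is usually expressed at the opposite time of day, so that a D-box target receives activation and repression in turn. Ciart, Bhlhe40 and Bhlhe41 are repressors that act back on the core activator pair of Arntl and Clock, which drives transcription from E-boxes. In liver these regulators are known for timing detoxification and bile acid synthesis, and in the SCN they are part of the pacemaker's output.

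Upstream sequences are shown for members in which the E-box occurs. RefSeq entries (GRCm38.p6) were matched by symbol for 6 of the 7 genes, with 7 start sites in all. Bhlhe40 had no entry and was not scanned. The 250 bases before each start were scanned on both strands. The E-box CACGTG, which reads the same on both strands, occurred 3 times before Ciart, once before Bhlhe41 and once before each of the Tef starts. It did not occur before Dbp, Hlf or Nfil3. Of the 250 bases before Dbp, 159 were annotated as Dbp exon, and of those before Bhlhe41, 138 as Bhlhe41 exon. The absence before Dbp therefore covers only a short stretch upstream of its first exon. The E-box occurred in 6.02% of 32851 promoter windows of that length, and 3 or more copies occurred in 0.0609% of them. The variant CACGTT (3.85% of windows) and the D-box TTANGTAA (2.06%) were found before none of the 6 scanned members. TAGGTCA, the extended half-site bound by orphan nuclear receptors such as the REV-ERB proteins (2.23% of windows), was found before Nfil3. That match lay at position -12 from the start, within 34 bases annotated as Nfil3 exon. TGACGTCA, the cAMP response element (1.55%), was found before Hlf. No match overlapped another. The window of the upstream Tef start, with its E-box, was annotated as exon over all 250 bases. A match is a description of these letters only. Below, bases upstream of the first annotated exon are written 5′ to 3′, with E-boxes in capitals, for Ciart (chr3:95882252-95882478, minus strand), Bhlhe41 (chr6:145865559-145865670, minus strand) and the downstream Tef start (chr15:81811164-81811413, plus strand).
Ciart: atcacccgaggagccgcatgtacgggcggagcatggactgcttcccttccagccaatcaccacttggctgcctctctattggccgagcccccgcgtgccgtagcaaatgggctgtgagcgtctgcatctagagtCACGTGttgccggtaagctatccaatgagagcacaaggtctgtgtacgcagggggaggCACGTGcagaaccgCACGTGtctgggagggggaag
Bhlhe41: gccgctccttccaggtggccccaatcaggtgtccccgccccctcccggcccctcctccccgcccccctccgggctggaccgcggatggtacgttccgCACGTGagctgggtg
Tef: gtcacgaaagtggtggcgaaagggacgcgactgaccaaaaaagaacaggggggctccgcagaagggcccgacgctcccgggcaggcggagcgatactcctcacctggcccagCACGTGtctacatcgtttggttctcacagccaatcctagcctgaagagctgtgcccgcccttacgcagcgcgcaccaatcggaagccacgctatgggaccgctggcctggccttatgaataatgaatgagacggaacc

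Library totals, in M (mega) counts, were 22.95 to 122.2 M counts in liver, 43.1 to 92.05 M in muscle, 23.7 to 47.1 M in ARC and 25.5 to 34.95 M in SCN. In Hu livers only 7.70 to 87.9 M lay in mouse rows, against 97.07 to 118.3 M in Mu livers. The share of counts in human rows was 15.9% to 93.1% in Hu livers, with a median of 58.7%, and 11 of 15 Hu livers were below 70%, a share of RNA that need not equal the share of cells. Of marker lists with 5 genes each, the summed level of mouse hepatocyte genes ranged from 87580 to 120300 CPM (counts per M mouse counts) in Mu livers and from 7495 to 83150 in Hu livers, and all 5 were lower in Hu. Stellate, sinusoidal endothelial and bile duct lists each had 5 of 5 genes higher in mouse rows of Hu livers, and the Kupffer list 3 of 5. In muscle, 4 of 5 fat cell genes were higher in Hu (summed CPM 98.4 to 1938 in Hu, 7.82 to 791 in Mu) and 2 of 5 slow fibre genes were lower. The Kupffer and sinusoidal lists, whose genes macrophages and vessels of muscle share in part, each had 3 of 5 genes higher in Hu muscle. The list of SCN neuron genes did not mark the SCN libraries, where its summed CPM had medians of 104 (Mu) and 83.9 (Hu) against 247 and 252 in ARC. The list of ARC neuron genes, of which 4 of 5 were found, followed the labels. Its medians were 140 (Mu) and 128 (Hu) in ARC against 30.3 and 23.3 in SCN. ARC and SCN are the labels' names, and no cell type is read from them.

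Levels of the 7 genes differed between tissues by gene. These levels are CPM after TMM scaling within a tissue, tested between tissues for ARC and SCN only, and liver counts come from a separate table that also counted human rows. Bhlhe41 had a mean of 1.78 CPM ± 2.67 (SD, n = 12) in Mu liver, against 56.2 ± 23.1 in Mu muscle, 59.9 ± 8.17 in Mu SCN and 74.3 ± 8.43 in Mu ARC. The ranges of the latter 3 overlapped, and liver, at most 9.37, lay below them. Hlf was lowest in Mu muscle, at 14.1 CPM ± 7.65, followed by liver at 69.0 ± 31.7, SCN at 85.8 ± 10.4 and ARC at 108 ± 30.9, of which the last 3 overlapped. Nfil3 was 43.4 ± 23.02 in Mu liver and 39.1 ± 26.1 in Mu muscle, which did not differ beyond their spread, and 9.67 ± 1.48 in ARC and 7.35 ± 1.60 in SCN. Bhlhe40 had the same order with overlap between neighbours, 209 ± 110 in liver, 128 ± 33.4 in muscle, 63.5 ± 7.77 in ARC and 62.0 ± 12.8 in SCN. Dbp had means of 70.7 to 85.02 CPM in the 4 Mu tissues, all within 1 SD of each other. Tef was 301 ± 21.9 in ARC, 300.4 ± 27.9 in SCN, 222 ± 77.8 in muscle and 172 ± 126 in liver, with overlap throughout. Ciart, the least abundant member in muscle, had 20.1 ± 30.9 CPM in liver, 11.5 ± 3.76 in SCN, 9.29 ± 3.02 in ARC and 4.98 ± 6.93 in muscle. Per kb of exon, the median level of Tef was the highest of the 7 in Mu ARC and SCN, at 37.95 and 38.4 CPM per kb, and that of Bhlhe40 was the highest in Mu liver and muscle, at 44.01 and 28.4 CPM per kb. By its mean, Tef (28.2) came before Bhlhe40 (27.2) in Mu muscle, so their order there is not set.

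In livers of the Mu arm the 7 genes formed a daily sequence. A cosine of 24 h was fitted per arm, the peak time is that of the fitted curve, and errors are jackknife standard errors (SE) over libraries. Dbp peaked at ZT 9.70 ± 0.619 and Bhlhe41 at ZT 10.05 ± 0.533, followed by Ciart at 12.3 ± 0.668 and Tef at 12.6 ± 0.375. Hlf peaked at 14.45 ± 0.481, Bhlhe40 at 16.1 ± 0.910 and the repressor Nfil3 at 22.6 ± 0.743. Nfil3 was thus 11.1 h ± 0.581 from Dbp, close to the opposite time. All 7 passed the edgeR test for rhythm in Mu liver (adjusted p from 1.24e-06 to 0.0257), where 17.3% of 14977 genes passed. With library sizes over all rows, human ones included, 4 of 7 passed. The Nfil3 call was lost without the first Mu library of ZT 2 (adjusted p = 0.0540) or without either Mu library of ZT 10 (0.0895 and 0.0873). Fitted peak to trough ratios were 110-fold for Dbp, 102-fold for Ciart, 21.7-fold for Bhlhe41, 8.48-fold for Tef, 4.56-fold for Bhlhe40, 3.90-fold for Nfil3 and 3.24-fold for Hlf.

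Mu muscle had Dbp, Tef, Hlf and Nfil3 in the same order, with smaller swings for the first 2. Dbp peaked at ZT 10.5 ± 0.448, Bhlhe41 at 10.65 ± 0.955, Ciart at 10.8 ± 0.648, Tef at 12.3 ± 0.282, Hlf at 13.0 ± 0.587 and Nfil3 at 19.6 ± 0.680. Peak to trough ratios in Mu muscle were 15.8-fold for Dbp, 15.1-fold for Ciart, 4.84-fold for Nfil3, 4.004-fold for Hlf, 2.59-fold for Bhlhe41 and 2.52-fold for Tef. Bhlhe40 and Bhlhe41 did not pass the rhythm test in Mu muscle (edgeR adjusted p = 0.518 and 0.0630), and the other 5 did, where 5.31% of 14197 genes passed. At an unadjusted p under 0.05, 6 of 7 members and 22.7% of genes were rhythmic. Without the second Hu library of ZT 2 or of ZT 14, Bhlhe41 passed (adjusted p = 0.0467 and 0.0183). In a joint fit of the 4 tissues, the Mu rhythm differed between liver and muscle for 6 of 7 genes, all but Hlf (adjusted p = 0.409). The other 6 had adjusted p from 6.09e-05 to 0.0177, and 13.3% of 16811 genes passed. That fit takes libraries as independent, although libraries of different tissues with equal numbers may come from the same mouse.

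**Figure D1:**
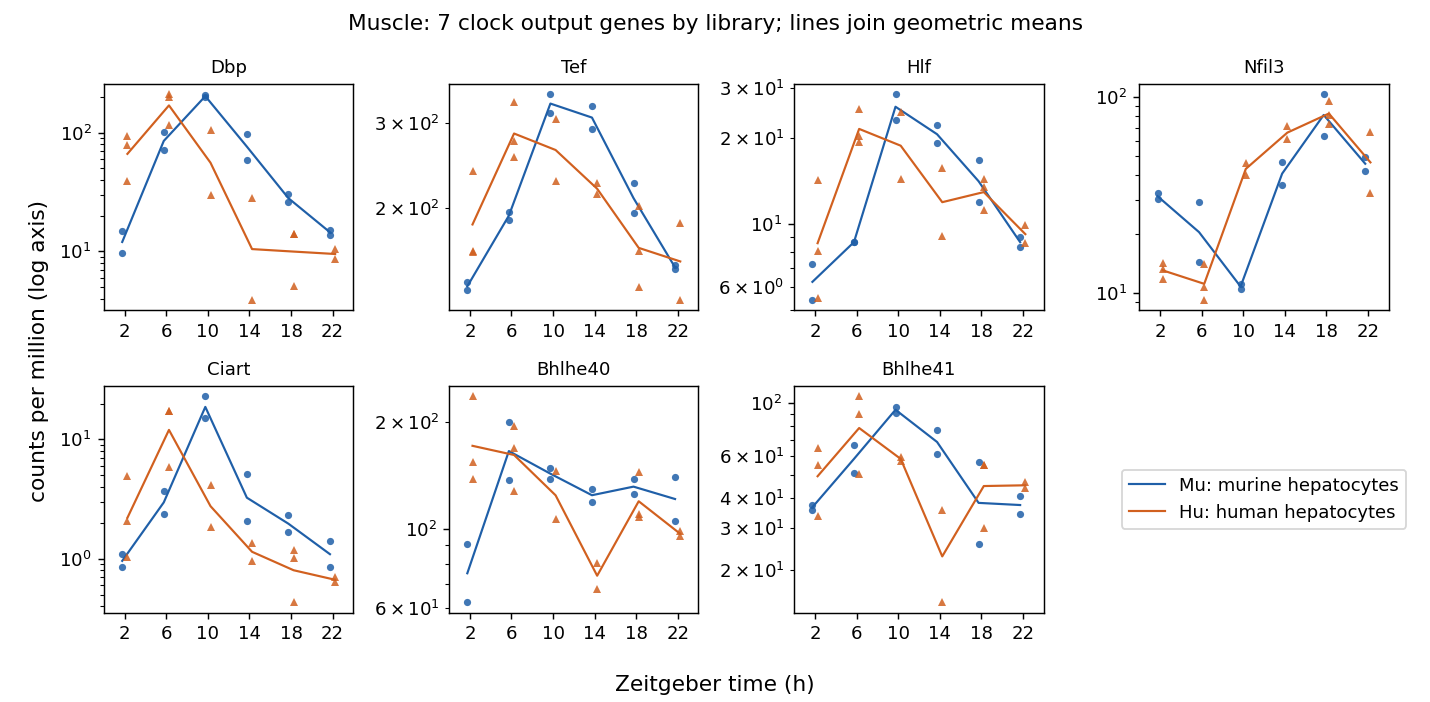
Muscle CPM (log axis) of the 7 genes against zeitgeber time, with 1 point per library (circles Mu, triangles Hu) and lines through the geometric means of each arm. Dbp, Tef, Hlf, Ciart and Bhlhe41 have their highest mean at ZT 6 in Hu and at ZT 10 in Mu, and Nfil3 is higher in Hu at ZT 10 and 14.

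In muscle the 7 genes all had an earlier fitted peak in Hu than in Mu, while their mean levels did not pass the test for a difference. The Hu minus Mu differences ran from -3.25 h (Nfil3) to -7.53 h (Bhlhe40), with a median of -4.11 h ± 0.925 (jackknife SE). The median stayed between -4.50 and -3.72 h when any 1 of the 27 libraries was left out. For comparison, the 1556 muscle genes with a rhythm in either arm showed a median of -2.83 h, and the Hu peak came first in 80.7%. The shift in each gene on its own did not pass the edgeR test for a different rhythm. It called 0 of 7 members and 0.0704% of genes, while 7 of 7 members had an unadjusted p under 0.05, as did 13.8% of genes. DESeq2 called 4 of 7 (Dbp, Tef, Nfil3 and Ciart, adjusted p from 0.00128 to 0.0365).

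Dbp, the first of the PAR bZIP activators to peak, showed the shift at the level of single libraries. At ZT 2 it had 9.63 and 14.96 CPM in Mu muscle and 94.7, 38.9 and 79.5 CPM in Hu. At ZT 6 it had 71.3 and 102 CPM in Mu and 116, 200 and 213 CPM in Hu. So every Hu library was above every Mu library at ZT 2 and ZT 6. At ZT 10 the order turned, with 207 and 201 CPM in Mu against 29.9 and 105 in Hu. At ZT 14 Mu libraries had 59.5 and 98.3 CPM and Hu libraries 28.1 and 3.88 CPM. Hu libraries also lay below both Mu libraries at ZT 18 (5.06, 13.97 and 13.97 against 30.5 and 25.8 CPM) and at ZT 22 (10.5 and 8.60 against 13.9 and 15.2 CPM). The arms therefore did not overlap at any of the 6 time points, which was true of 1.16% of muscle genes and of no other member. The fitted peak was at ZT 6.27 ± 0.692 in Hu and 10.5 ± 0.448 in Mu, a difference of -4.27 h ± 0.825. The edgeR adjusted p was 0.0685 (unadjusted 7.72e-05). It was under the threshold without the second Hu library of ZT 14 (0.0482) or the third Hu library of ZT 18 (0.0495), and over it without any other. Amplitude, the log2 distance from mean to peak, was 2.10 ± 0.27 in Hu and 1.99 ± 0.20 in Mu, which did not differ beyond their errors.

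Tef and Hlf, which peak after Dbp, had differences in the same direction. Tef at ZT 10 had 315 and 345 CPM in Mu and 228 and 306 in Hu, and at ZT 6 it had 189 and 196 CPM in Mu and 255, 275 and 332 in Hu. Hu muscle was thus above Mu at ZT 6 and below it at ZT 10, without overlap at either time. Its peak was at ZT 8.64 ± 0.779 in Hu against 12.3 ± 0.282 in Mu, a difference of -3.63 h ± 0.827 (edgeR adjusted p = 0.107). Hlf at ZT 6 had 8.64 CPM in both Mu libraries and 19.4, 20.4 and 25.5 CPM in Hu. By ZT 10 the Mu libraries had reached 23.3 and 28.7 CPM, and the Hu libraries, at 14.3 and 24.8, overlapped them. Its difference was -3.35 h ± 1.44 (edgeR adjusted p = 0.262). The Hu rhythm of Hlf was just under the threshold (adjusted p = 0.0446) and was kept in 11 of 27 fits that left out 1 library.

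Nfil3, the D-box repressor, had its high values in the other part of the day, and its fitted peak was also earlier in Hu. At ZT 2 it had 30.2 and 32.3 CPM in Mu muscle and 13.2, 14.2 and 11.8 CPM in Hu. At ZT 10 it had 11.1 and 10.4 CPM in Mu and 46.2 and 40.2 CPM in Hu. At ZT 14 it had 35.7 and 46.5 CPM in Mu and 61.2 and 71.3 in Hu. At ZT 6 it had 29.1 and 14.4 CPM in Mu and 9.19 to 13.98 CPM in Hu. The arms did not overlap at ZT 2, 6, 10 and 14, with Hu low at ZT 2 and 6 and high at ZT 10 and 14. The log2 difference at ZT 10 was 2.00 ± 0.33 (SE), the single case among the 7 genes and 6 times in muscle that passed the test (edgeR adjusted p = 0.0267, with 0.0634% of genes called at ZT 10). The shares of genes called at ZT 2, 6, 14, 18 and 22 were 0.00704%, 0.0423%, 6.4%, 0% and 0.0141%. At ZT 18 the arms overlapped, with 104 and 63.5 CPM in Mu and 95.5, 81.5 and 72.8 CPM in Hu. Peaks were at ZT 16.3 ± 0.610 in Hu and 19.6 ± 0.680 in Mu, a difference of -3.25 h ± 0.913 (edgeR adjusted p = 0.143 for the rhythm).

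Ciart, a repressor of the Arntl and Clock pair with the 3 E-boxes shown above, had the same form as Dbp. Its ZT 6 values were 2.36 and 3.73 CPM in Mu and 5.86, 17.2 and 17.3 in Hu, and its ZT 10 values were 23.04 and 15.2 CPM in Mu and 1.85 and 4.12 in Hu. Hu libraries were all above Mu at ZT 6 and all below Mu at ZT 10. The peak was at ZT 6.69 ± 0.744 in Hu and 10.8 ± 0.648 in Mu, a difference of -4.11 h ± 0.986 (edgeR adjusted p = 0.211). Its amplitude was 1.98 ± 0.37 in Hu and 1.96 ± 0.42 in Mu.

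Bhlhe40 and Bhlhe41, paralogous E-box repressors, had weak rhythms in muscle and loose phase estimates. Bhlhe40 at ZT 2 had 62.2 and 90.7 CPM in Mu and 236, 154 and 138 CPM in Hu, and at ZT 14 it had 130 and 119 CPM in Mu and 80.5 and 68.0 in Hu. The arms did not overlap at those times, with Hu higher at ZT 2 and lower at ZT 14. Its difference was -7.53 h ± 3.81, and neither arm passed the rhythm test (edgeR adjusted p = 0.0688 in Hu). Without the first Mu library of ZT 2 or the third Hu library of ZT 18, the Hu rhythm passed (adjusted p = 0.0487 and 0.0350). Bhlhe41 had a difference of -5.65 h ± 2.02, with peaks at ZT 5.01 ± 1.78 in Hu and 10.65 ± 0.955 in Mu and no pass for rhythm in Hu (adjusted p = 0.127).

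Over the 7 genes, Hu and Mu muscle libraries did not overlap for 4, 5, 5, 7, 2 and 4 genes at ZT 2, 6, 10, 14, 18 and 22, against 18.3%, 28.8%, 55.1%, 57.4%, 30.3% and 61.3% of all genes. With 2 or 3 libraries per arm and time, such gaps are common, and only the shares at ZT 2 to 14 were above the background. The time-averaged level in muscle did not pass the edgeR test for any of the 7 genes. It called 0 of 7, with 0 of 7 at an unadjusted p under 0.05 and 0 of 7 by DESeq2, against 26.9% of all genes (39.3% unadjusted). Log2 differences ran from -0.38 (Ciart) to 0.15 (Hlf). In Hu muscle 5 of 7 genes were rhythmic (Dbp, Tef, Hlf, Nfil3 and Ciart), and 7.78% of all genes. With the Hu libraries fitted alone, 3 of 7 were. The fat cell and slow fibre genes differed between the arms of these muscle libraries, as given above. With the 2 lists' mean levels as covariates, each count of calls stayed within 1.5 times the value given.

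**Figure D2:**
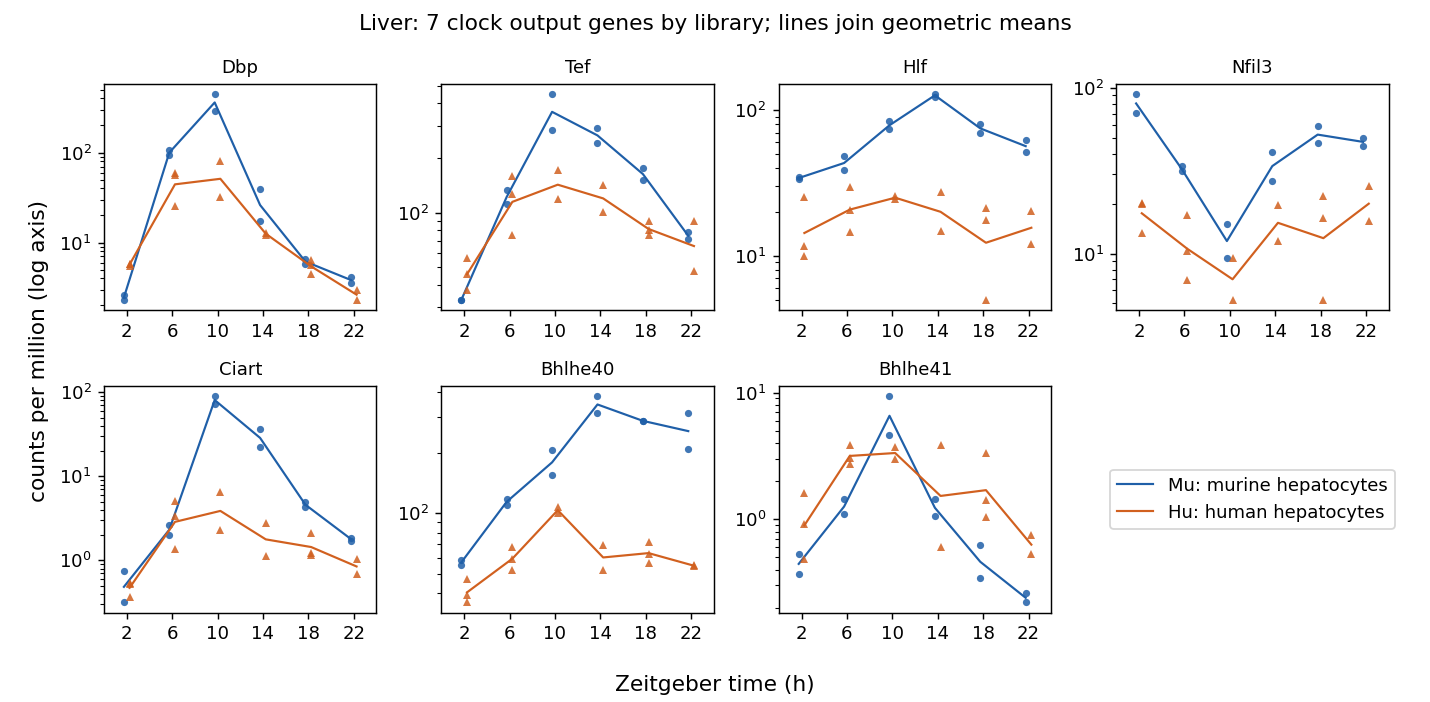
Mouse liver CPM (log axis) of the 7 genes against zeitgeber time, with 1 point per library (circles Mu, triangles Hu) and lines through the geometric means of each arm. Ciart, Bhlhe40, Hlf and Nfil3 lie below Mu in most Hu libraries, and the Mu peaks of Dbp, Tef and Ciart at ZT 10 are lower in Hu.

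In the mouse transcripts of Hu livers 6 of the 7 genes had a lower mean level. The fitted amplitude was smaller in Hu for 7 of 7 genes, of which 1, Bhlhe40, passed the test for a different rhythm. The median amplitude of the 7 was 1.54 in Mu and 0.76 in Hu, against 0.27 and 0.20 over all genes, also lower in Hu. Only Dbp passed the rhythm test in Hu liver (edgeR adjusted p = 0.00113, 0.167% of genes called). Unadjusted, 5 of 7 were under 0.05 (15.8% of genes), and 4 of 7 were called by DESeq2 or with library sizes over all rows. The median peak difference was -1.43 h ± 0.820, with 6 of 7 earlier, close to the -1.39 h of the 2608 genes rhythmic in either arm. Left-out libraries moved it between -1.71 and -0.96 h, and it was -3.18 h with library sizes over all rows and -0.53 h without ZT 6. Bulk counts cannot tell fewer cells of a type from less RNA per cell, and the share of human RNA and the marker lists given above differ between the same livers. Their part in the amplitudes was not tested. By time point, the mean human share of Hu livers ranged from 41.7% at ZT 2 to 73.8% at ZT 10 and 14, so time and share are not independent in this arm.

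Dbp in Mu liver went from 2.29 and 2.62 CPM at ZT 2 to 290 and 448 CPM at ZT 10. In Hu liver it went from 5.50, 5.77 and 5.83 CPM at ZT 2 to 32.0 and 81.6 CPM at ZT 10. Hu was thus above Mu at the Mu trough and below it at the Mu peak, with no overlap at either time. At ZT 6 Mu had 94.3 and 106 CPM and Hu had 56.6, 25.8 and 59.7, all lower. The peak to trough ratio was 24.3-fold in Hu and 110-fold in Mu, and amplitude was lower by a log2 difference of -1.09 ± 0.48. The peak was at ZT 9.14 ± 0.428 in Hu against 9.70 ± 0.619 in Mu, and the rhythms as a whole did not pass the test for a difference (edgeR adjusted p = 0.225).

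Tef kept part of its daily swing, and Hlf was low at all times in Hu liver. At ZT 10 Tef had 286 and 451 CPM in Mu and 118 and 172 in Hu, and at ZT 2 it had 33.0 and 32.9 CPM in Mu and 56.0, 37.2 and 45.6 in Hu. Amplitude was 0.76 ± 0.22 in Hu and 1.54 ± 0.26 in Mu. The rhythm of Tef in Hu liver did not pass (adjusted p = 0.0928) and did so without the second Hu library of ZT 2 (0.0393) or the first of ZT 22 (0.0373). Hlf had a lowest, median and highest level of 33.6, 65.7 and 129 CPM over 12 Mu livers and of 4.96, 20.2 and 29.5 CPM over 15 Hu livers. The 2 ranges did not overlap. The mean level of Hlf in Hu was 0.292 times that in Mu (log2 difference -1.77 ± 0.17, edgeR adjusted p = 3.50e-09). With the human share as a covariate the difference was -0.58 and was not called (adjusted p = 0.308).

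Nfil3 in Hu liver lacked the high values of Mu liver around the turn of the cycle. At ZT 2 it had 91.9 and 70.6 CPM in Mu livers and 20.0, 13.3 and 20.1 in Hu, and at ZT 22 it had 44.8 and 49.7 CPM in Mu and 25.4 and 15.7 in Hu. At ZT 10, the Mu low point, Hu livers (9.34 and 5.24 CPM) were below Mu (9.37 and 15.1 CPM), by a margin of under 1 CPM for the closest pair. Its level in Hu was 0.356 times that in Mu (log2 -1.49 ± 0.22, adjusted p = 1.79e-06). With the human share as a covariate, the level difference was -0.028 and was not called (adjusted p = 0.975). The fitted peaks of the arms did not differ beyond their errors (ZT 21.8 ± 1.42 in Hu and 22.6 ± 0.743 in Mu). With that covariate the peak difference was -4.09 h in place of -0.82 h ± 1.59.

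Ciart showed the largest single-time difference of the 7. At ZT 10 it had 72.9 and 90.0 CPM in Mu livers and 2.33 and 6.46 in Hu, a log2 difference of -4.22 ± 0.61 (edgeR adjusted p = 0.000252). At ZT 14 it had 22.2 and 37.0 CPM in Mu and 2.81 and 1.13 in Hu. At the trough, ZT 2, the arms overlapped, with 0.741 and 0.317 CPM in Mu and 0.367, 0.527 and 0.540 in Hu. Peak to trough was 7.56-fold in Hu against 102-fold in Mu, and the amplitude difference was -1.88 ± 0.60. Low values of Ciart in Hu liver rest on as few as 14 counts in a library, and those of Bhlhe41 on as few as 10.

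Bhlhe40 was the single member whose rhythm differed between arms in liver. At ZT 14 it had 383 and 317 CPM in Mu and 52.4 and 69.3 in Hu, at ZT 18 it had 289 and 288 CPM in Mu and 62.9, 71.8 and 56.2 in Hu, and at ZT 22 it had 208 and 316 CPM in Mu and 54.5 and 55.0 in Hu. Its highest Hu values, 107 and 100.4 CPM, were at ZT 10, where Mu had 156 and 206. The arms overlapped at no time point, as was also true of Hlf and Nfil3 and of 31.9% of liver genes. The Mu peak at ZT 16.1 ± 0.910 was at ZT 12.05 ± 0.716 in Hu, a difference of -4.03 h ± 1.16, and amplitude was 1.09 ± 0.21 in Mu and 0.48 ± 0.16 in Hu. The edgeR adjusted p for a different rhythm was 0.0449, with 1.28% of genes called. This call was kept in 8 of 27 fits that left out 1 library, and the adjusted p ranged from 0.0244 to 0.0883. With the human share as a covariate it held (0.0441). It was lost with no filter on low counts, with replicates 1 and 2 only, and with the library size taken over all rows. Leaving out any single time point also lost it. Of 40 alternative settings, left-out libraries included, 29 changed the call. At an unadjusted p under 0.05, 6 of 7 members and 21% of genes differed in rhythm, and DESeq2 called 3 of 7 (Tef, Ciart and Bhlhe40).

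Bhlhe41 was the exception in level. In Mu liver it peaked with 4.59 and 9.37 CPM at ZT 10 and was at 0.221 and 0.260 CPM at ZT 22. In Hu liver it had 3.69 and 3.02 CPM at ZT 10 and 0.530 and 0.749 CPM at ZT 22. Hu was lower at the Mu peak and higher at the Mu trough. Its mean level in Hu was 1.94 times that in Mu on the fitted log2 scale (0.95 ± 0.29, adjusted p = 0.00504), while its arithmetic means were 2.05 CPM ± 1.32 (SD, n = 15) and 1.78 ± 2.67 (n = 12).

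In mean level, 7 of 7 members passed the test in liver, where 79.5% of all genes did, so that the count itself is near the background. Of the 7, 6 were lower in Hu (37% of genes) and 1 was higher (42.5% of genes). The lower ones ran from 0.267 times Mu (Ciart) to 0.681 times Mu (Tef). With the share of human counts of each library as a covariate, 1 of 7 passed, Bhlhe40 (log2 difference in level -1.61, edgeR adjusted p = 0.00454). The sign of Tef (0.063) and of Bhlhe41 (-0.44) then turned, both short of the threshold. That share was 0.00592% to 0.0204% in Mu livers, so it is nearly tied to the arm. By time point, 5 of 7 members differed at ZT 10, 5 at ZT 14 and 6 at ZT 18, against 45.1%, 35.8% and 47.6% of genes. At ZT 2, 6 and 22 there were 2, 3 and 2 members, against 36.8%, 37.2% and 17.4% of genes. Without a test, the arms did not overlap for 5, 5, 7, 6, 6 and 6 of the 7 genes at ZT 2, 6, 10, 14, 18 and 22, where 58.4%, 67.4%, 81.4%, 80%, 64.4% and 69.6% of genes did not.

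**Figure D3:**
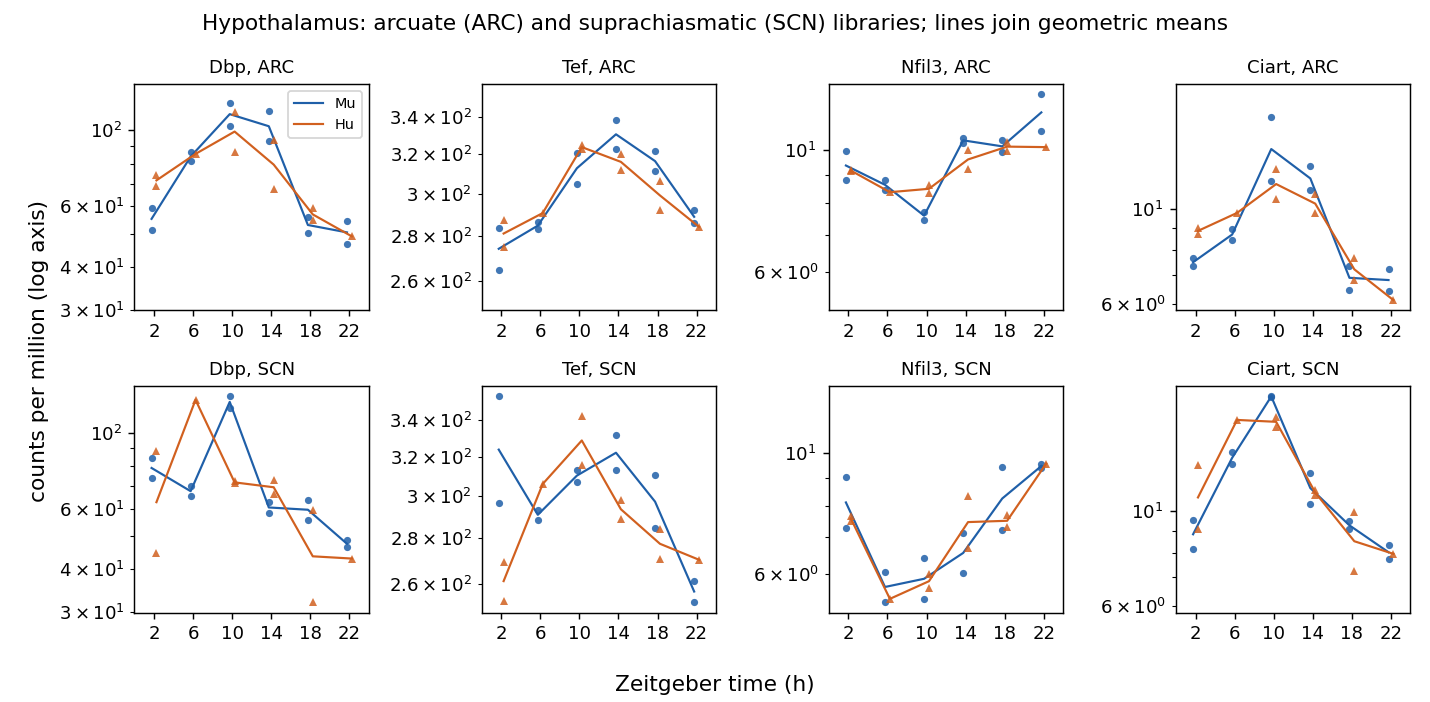
CPM (log axis) of Dbp, Tef, Nfil3 and Ciart against zeitgeber time in ARC (top) and SCN (bottom), with 1 point per library (circles Mu, triangles Hu) and lines through the geometric means. In both regions and arms the highest mean of Dbp and Ciart, and the lowest of Nfil3, is at ZT 6 or 10.

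In the hypothalamus fitted amplitudes were at most 0.65, and 0 of 7 genes passed the edgeR tests for a difference between arms in rhythm or level. In Mu ARC, Dbp, Tef, Nfil3, Ciart and Bhlhe41 passed the rhythm test, 5 of 7 where 1.41% of 15079 genes passed. In Hu ARC, Dbp and Bhlhe41 passed, 2 of 7 where 0.0995% of genes passed. Before adjustment, 5 of 7 had a p under 0.05 for rhythm in Hu ARC (5.87% of genes). DESeq2 called 4 of 7 there, and with the Hu libraries fitted alone edgeR called 0. Dbp in Mu ARC had 103 and 120 CPM at ZT 10 and 54.4 and 46.7 CPM at ZT 22. In Hu ARC it had 86.8 and 114 CPM at ZT 10 and 49.1 CPM in the single library of ZT 22. High and low times were thus the same in both arms. Its peak was at ZT 8.89 ± 0.714 in Hu and 10.4 ± 0.522 in Mu, a difference of -1.55 h ± 0.884. The Hu call of Dbp was kept in 14 of 22 fits with 1 library left out (adjusted p from 0.0150 to 0.239).

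Bhlhe41 was rhythmic in both arms of ARC, with a swing of only 1.35-fold in Mu and 1.29-fold in Hu. It had 83.0 and 87.8 CPM at ZT 10 and 65.4 and 61.8 CPM at ZT 22 in Mu, and 82.5 and 85.2 CPM at ZT 10 and 67.0 CPM at ZT 22 in Hu. Peaks were at ZT 10.06 ± 0.202 in Mu and 9.58 ± 0.639 in Hu. The Hu call was lost without either Hu library of ZT 10 (adjusted p = 0.0609 and 0.110). Tef reached its maximum at ZT 14.3 ± 0.370 in Mu ARC and 12.1 ± 0.755 in Hu ARC, and Nfil3 at 20.2 ± 0.986 and 19.3 ± 0.556. The Nfil3 call in Mu was lost without the first or second Mu library of ZT 10 (adjusted p = 0.0759 and 0.0663) or the second of ZT 22 (0.0934). Hlf and Bhlhe40 did not pass in either arm. Hlf values in Mu ARC ranged from 74.3 to 173 CPM, and the 2 libraries of ZT 10 had 106 and 173 CPM, so replicates spread as widely as time points. The median peak difference of the 7 in ARC was -1.46 h ± 0.973. The 214 ARC genes with a rhythm in either arm had a median of -1.90 h, and 93.0% of them peaked earlier in Hu. The edgeR test for a different rhythm called 0 of 7 members and 0% of genes. At an unadjusted p under 0.05, 1 of 7 differed (Dbp, 1.78% of genes), and DESeq2 called 0.

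In SCN only Ciart passed the rhythm test, in Mu (edgeR adjusted p = 0.00372, 0.207% of 15006 genes called). It had 18.5 and 18.4 CPM at ZT 10 and 8.33 and 7.71 CPM at ZT 22 in Mu, and 15.7 and 16.6 CPM at ZT 10 and 7.95 CPM at ZT 22 in Hu. Its fitted maximum fell at ZT 9.69 ± 0.535 in Mu and 8.18 ± 0.763 in Hu, a difference of -1.51 h ± 0.930. In Hu SCN edgeR called 0 of 7 and 0.00666% of genes, with 5 of 7 at an unadjusted p under 0.05 (5.52% of genes) and 1 by DESeq2. Ciart in Hu SCN was closest, at 0.0614, and passed without the second Mu library of ZT 2 (0.0472), the first Mu library of ZT 14 (0.0329) or the second Hu library of ZT 18 (0.0357). Nfil3 in Mu SCN was at 0.0543 and passed in 5 of 22 fits with 1 library left out. No member differed in rhythm between arms in SCN (0 of 7 by edgeR, 0 of 7 unadjusted, 0 by DESeq2, with 0% of genes adjusted and 1.4% unadjusted). The median peak difference of the 7 was -1.08 h ± 1.51. It was -1.47 h for the 31 SCN genes with a rhythm in either arm, of which 83.9% peaked earlier in Hu. Mean levels passed the edgeR test for 0 of 7 genes in ARC (0.00663% of genes) and 0 of 7 in SCN (0% of genes), and DESeq2 also called 0. Unadjusted, 0 of 7 were under 0.05 in either (4.24% and 2.17% of genes).

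With both arms together the hypothalamic rhythms were clearer. Dbp, Tef, Nfil3, Ciart and Bhlhe41 passed in ARC (2.42% of 15105 genes), and Dbp, Tef, Nfil3 and Ciart in SCN (9.65%). For Ciart the adjusted p was 1.26e-05 in ARC and 5.81e-07 in SCN. The common Dbp peak was at ZT 9.79 in ARC and 7.97 in SCN, but 0 of 7 members and 0% of genes passed the edgeR test for a different rhythm between the regions. At an unadjusted p under 0.05, Tef (0.0445) and Nfil3 (0.0387) did, as did 8.69% of genes. In level, SCN libraries were lower than ARC libraries for Hlf (log2 -0.41 ± 0.081), Nfil3 (-0.40 ± 0.042) and Bhlhe41 (-0.30 ± 0.037) and higher for Ciart (0.33 ± 0.057). These 4 of 7 passed the test, as did 73.2% of genes.

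**Figure D4:**
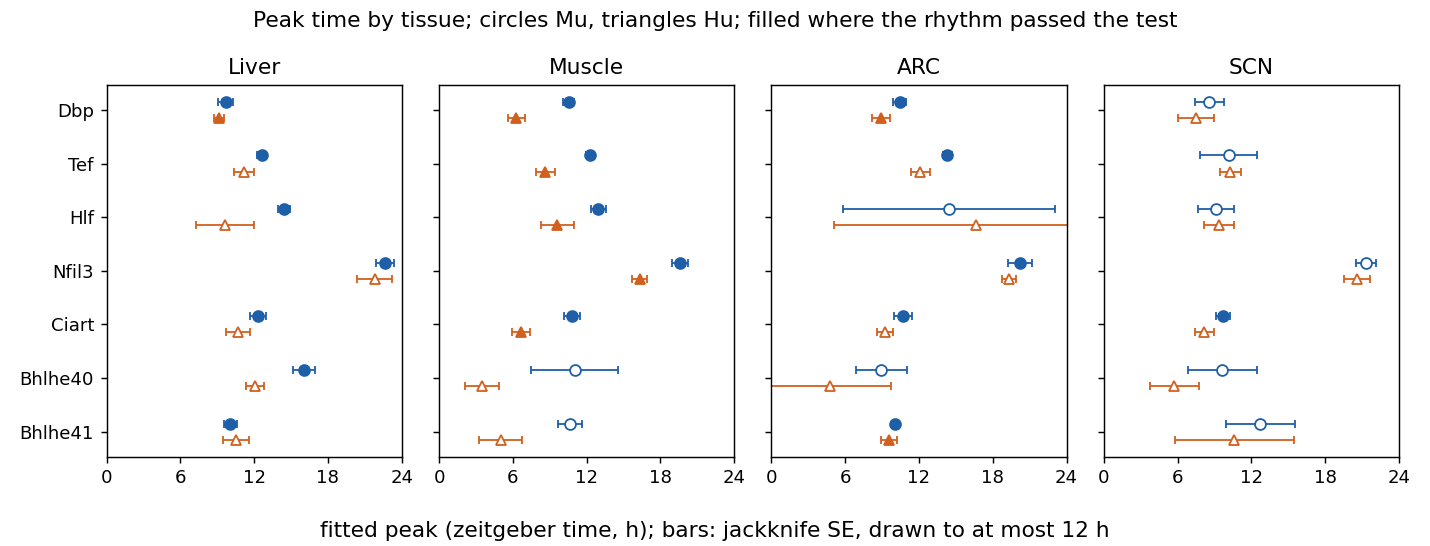
Fitted peak time (zeitgeber time, h) of each gene in each tissue, circles for Mu and triangles for Hu, with jackknife SE bars and filled symbols where the rhythm passed the test. In muscle each Hu triangle lies 3.25 to 7.53 h before its Mu circle, while in SCN the peaks of the arms overlap within their errors for most genes.

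The muscle shift was set against the arm difference in the other tissues in the joint fit. For Dbp the Hu minus Mu difference in rhythm was not the same in muscle as in liver (edgeR adjusted p = 0.0329), with peak differences of -4.27 h ± 0.825 and -0.56 h ± 0.758. For Bhlhe40 it was not the same either (adjusted p = 0.0485), with -7.53 h ± 3.81 in muscle and -4.03 h ± 1.16 in liver, and with an amplitude that was smaller in Hu in liver only. These 2 of 7 passed where 7.39% of genes did. The other 5 had adjusted p from 0.214 (Nfil3) to 0.910 (Hlf). Against ARC and against SCN 0 of 7 passed by edgeR, and 0.107% and 0.119% of genes did. DESeq2 was not run on this fit. At an unadjusted p under 0.05, Dbp, Nfil3 and Ciart differed from ARC, and Dbp, Tef, Nfil3 and Ciart from SCN, with 6.13% and 7.07% of genes. The smallest adjusted p of a member was 0.272 against ARC and 0.179 against SCN, both for Dbp. A difference of the muscle shift from the shift in these regions was not shown for any member.

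**Figure D5:**
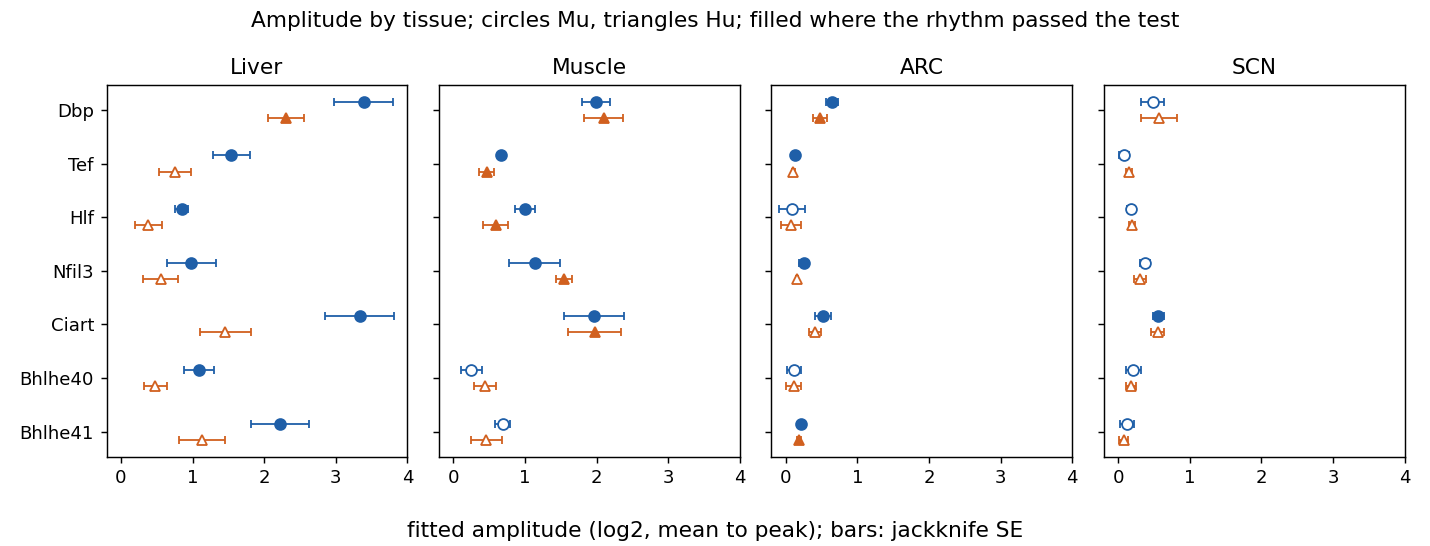
Fitted amplitude (log2, mean to peak) of each gene in each tissue, circles for Mu and triangles for Hu, with jackknife SE bars and filled symbols where the rhythm passed the test. Liver amplitudes of Hu lie below those of Mu for all 7 genes, muscle amplitudes of Dbp and Ciart differ between the arms by less than their errors, and ARC and SCN amplitudes reach at most 0.65 (Dbp in Mu ARC).

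The spacing of 4 members from Dbp in muscle did not differ between the arms beyond its errors. Tef peaked 1.73 h ± 0.544 after Dbp in Mu muscle and 2.37 h ± 0.809 after it in Hu. Hlf followed Dbp by 2.44 h ± 0.781 in Mu and 3.36 h ± 1.17 in Hu, and Nfil3 by 9.05 h ± 0.812 and 10.1 h ± 0.727. Ciart peaked 0.26 h ± 0.598 after Dbp in Mu and 0.42 h ± 0.650 after it in Hu. Bhlhe40 and Bhlhe41, whose rhythms passed in neither arm of muscle, peaked 0.49 h ± 3.17 and 0.12 h ± 1.06 after Dbp in Mu, while in Hu their hours after Dbp were -2.77 ± 1.11 and -1.26 ± 1.55, that is, before it. In liver, Tef followed Dbp by 2.93 h ± 0.587 in Mu and 2.06 h ± 0.667 in Hu, while Bhlhe40 followed by 6.38 h ± 1.30 in Mu and 2.91 h ± 0.705 in Hu.

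The core clock genes upstream of these regulators were taken as a list of 11 (Arntl, Clock, Npas2, Nr1d1, Nr1d2, Rora, Per1, Per2, Per3, Cry1 and Cry2). In muscle 11 of 11 had an earlier fitted peak in Hu, with a median of -3.22 h. The test for a different rhythm called 2 of 11, where it called 0.0704% of genes. These were Nr1d1 (-3.58 h, edgeR adjusted p = 0.0396) and Nr1d2 (-4.55 h, adjusted p = 0.0198), the REV-ERB repressors. In Hu muscle 10 of 11 were rhythmic (7.78% of genes), and 10 of 11 in Mu (5.31%). In liver 11 of 11 had a smaller amplitude in Hu, with a median of 1.91 in Mu and 1.10 in Hu. The median over all liver genes was also lower in Hu (0.27 in Mu and 0.20 in Hu). The share of all genes with a smaller amplitude was not counted. Of the clock list, 10 of 11 were rhythmic in Mu liver (17.3% of genes) and 5 of 11 in Hu liver (0.167%). The 5 of 11 that differed in rhythm (1.28% of genes) were Cry1, Nr1d1, Nr1d2, Npas2 and Per2. Dbp is an E-box target of the Arntl and Clock pair, and Nfil3 is repressed by REV-ERB. The Nr1d1 maximum in muscle fell at ZT 5.24 (Mu) and 1.66 (Hu).

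Genes known as targets of the PAR bZIP factors or of NFIL3 were taken as a list of 12, which holds Nr1i3, Por, Alas1, Pdxk, Cyp2a4, Cyp2a5, Cyp2b10, Cyp2c37, Cyp2c50, Cyp7a1, Ppara and Fgf21. In Mu liver 4 of 12 were rhythmic, where 17.3% of genes were. They were Por, the electron donor of cytochromes P450, Alas1 of heme synthesis, Pdxk of vitamin B6 activation, and Cyp7a1 of bile acid synthesis. In Hu liver 0 of 12 passed the edgeR test, where only 0.167% of genes did. At an unadjusted p under 0.05 there were 3 of 12, against 15.8% of genes. Por, Alas1 and Pdxk differed in rhythm between arms (adjusted p = 0.0132, 0.0212 and 0.0132), 3 of 12 where 1.28% of genes did. Their Mu peaks were at ZT 13.1, 13.7 and 16.01, after that of Dbp. Amplitudes in Mu and Hu were 1.27 and 0.13 for Por, 1.48 and 0.36 for Alas1, and 0.75 and 0.073 for Pdxk. In level 10 of 12 differed, 7 lower and 3 higher in Hu, close to the 79.5% of all liver genes that did. Cyp7a1 had a log2 difference of -6.06 ± 0.62. Cyp2a4 (3.07 ± 0.43) and Cyp2a5 (2.56 ± 0.39), near-identical paralogs between which reads may be split, and Fgf21 (2.27 ± 0.36) were the 3 higher ones. In muscle 4 of the 12 were tested. Of these, Pdxk was rhythmic in Hu (adjusted p = 0.0445, 7.78% of genes called) and just short of the threshold in Mu (0.0532). Its amplitude was 0.51 in Hu and 0.53 in Mu, with fitted peaks at ZT 12.6 and 16.2. Its rhythm did not pass the edgeR test for a difference between arms (adjusted p = 0.359).

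The genes whose log2 CPM followed a member most closely over the 12 Mu libraries of a tissue were taken as the 5 with the highest Pearson correlation. These libraries share time points, so the values describe likeness only. For Dbp in liver they were Ripk2 (0.965), Lrrc57 (0.941), the member Bhlhe41 (0.921), Nr1d2 (0.921) and Igsf23 (0.918). For Dbp in muscle they were Gipc1 (0.977), Nr1d2 (0.964), Ccdc85b (0.942), Lin52 (0.931) and Gadd45g (0.929). For these 5 the fitted muscle peak was earlier in Hu by differences from -4.55 h (Nr1d2) to -1.51 h (Gadd45g). The Hu peak was also earlier in 80.7% of the muscle genes with a rhythm in either arm. For Nfil3 in liver the 5 were Hdac5 (0.931), Nelfa (0.916), Tnfaip2 (0.913), Abtb2 (0.908) and Dnmt3b (0.9075), and in muscle Zdhhc14 (0.983), Dusp5 (0.967), Zfp449 (0.967), Atg2b (0.961) and Zbtb21 (0.958). In muscle the latter 5 had differences from -5.85 h (Atg2b) to -2.68 h (Zfp449). Liver differences had both signs. They ran from -9.58 h (Lrrc57) to 0.45 h (Bhlhe41) on the Dbp list and from -2.79 h (Nelfa) to 3.76 h (Hdac5) on the Nfil3 list. Nr1d2 was the one gene on both Dbp lists.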

How the data were processed

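Gene counts of 98 RNA sequencing libraries were used as the authors deposited them, raw and unnormalised, with liver in one table and the other tissues in another. STAR and the builds GRCm38, mm10, hg38, GRCh38 and hg19 are named, with no role, per the submitters' processing notes, and the library kit keeps strand per the labels' protocols. The counting program is not given in the sources used here. A symbol was found for 19615 of 19689 and 20329 of 20415 mouse identifiers, and human rows were left out of the tests. Groups came from the labels, and 2 Hu columns (ZT 22 of ARC and SCN) were matched by group only, since they are numbered 1 while the single label of each group is numbered 2. Genes were filtered per tissue with filterByExpr (minimum count 10), scaled by TMM and fitted with edgeR 4.0.16 (R 4.3.3, quasi-likelihood test) by a 24 h cosine per arm. Every adjusted p is from edgeR, with Benjamini-Hochberg adjustment over all genes of a tissue, unless DESeq2 (1.42.0) is named, and the threshold is 0.05. Library sizes are sums over mouse rows. Jackknife SEs come from leaving out each library. Scripts were tested on simulated data. Alternatives were DESeq2, no filter, other library sizes, ZT as a factor, each arm alone, a replicate block, covariates and left-out libraries or time points. No 2 libraries of a group were duplicates. The members, the lists of clock genes, targets and markers, and the rule for the genes named (all 7 members, the list genes, and the 5 genes most like Dbp and Nfil3) were chosen with earlier results of these data known. Sequences are from RefSeq (GRCm38.p6). Of the clock list as planned, 1 gene is not reported here.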

Additional observations from a re-analysis of the deposited data

Results flagged for a closer look

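Dbp stood out because its Hu minus Mu difference in rhythm was not the same in muscle as in liver (edgeR adjusted p = 0.0329 in the joint fit of 4 tissues, 7.39% of genes called), with peak differences of -4.27 h ± 0.825 and -0.56 h ± 0.758. Bhlhe40 met the same criterion (adjusted p = 0.0485), with peak differences of -7.53 h ± 3.81 in muscle and -4.03 h ± 1.16 in liver. Bhlhe40 was also the single member whose rhythm in liver differed between Hu and Mu (adjusted p = 0.0449), a call that 8 of 27 fits with 1 library left out retained.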

How the results depend on the processing

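Of the alternative values for counts of members called and median peak differences, 563 stayed, 39 were weaker, 20 stronger and 3 moved. A count stayed if it was equal to or within 1.5 times the value given. A median stayed if it was within its jackknife SE. In liver, members with a different rhythm numbered 0 with no filter on low counts, 0 with replicates 1 and 2 only and 0 with library sizes over all rows, 2 with ZT as a factor and 3 with DESeq2. Library sizes over all rows gave 4 members rhythmic in Mu and 4 in Hu liver, and a median peak difference of -3.18 h. DESeq2 gave 4 rhythmic in Hu liver, and the median was -0.53 h without ZT 6. With the human share as a covariate, 1 member differed in level, and the differences of Tef (0.063) and Bhlhe41 (-0.44) changed sign. In muscle, 3 members were rhythmic in Hu with each arm fitted alone, and 4 differed in rhythm with DESeq2. In ARC, members rhythmic in Hu numbered 1 with replicates 1 and 2 only, 0 with the arm alone and 4 with DESeq2, and those in Mu 3 with the arm alone. In SCN, DESeq2 gave 2 in Mu and 1 in Hu, and the median was -2.83 h without ZT 2. The cause of these changes was not tested.

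Leaving out 1 library at a time gave 1 to 2 members rhythmic in Hu liver, 0 to 1 with a different rhythm in liver, 0 to 1 in muscle, 0 to 2 rhythmic in Hu ARC, 1 to 2 in Mu SCN and 0 to 1 in Hu SCN. Of the values for single genes, 2774 stayed, 30 moved, 34 were weaker, 9 stronger and 2 reversed. With the replicate block, 0 members differed in rhythm in liver and 1 was rhythmic in Hu ARC, and no other count changed by over 1.5 times. The numbers were not taken as pairs, since the labels name no shared animal or batch and not every pair correlated over 0.1. Equal-numbered Hu and Mu libraries had mean correlations of deviations of 0.115 in liver (7 of 12 pairs over 0.1), 0.025 in muscle (2 of 12), 0.13 in ARC (6 of 8) and 0.12 in SCN (4 of 8). With 1 to 3 libraries per arm and time, and 10 to 806 counts for Bhlhe41 in liver, small differences were not detectable.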
